A study of Mus musculus with 4 samples.

Results

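The subject is a set of 10 mouse genes that the transcription factor p53 is known to induce (Cdkn1a, Ccng1, Bax, Phlda3, Trp53inp1, Aen, Eda2r, Mdm2, Zmat3 and Sesn2), out of 30268 genes counted. They were followed in epicardial cells and 8 other cell classes of the embryonic heart. Cdkn1a, Bax and Phlda3 were picked because their counts were higher in knockout epicardial cells, so their values in that comparison are given as a description with no test. The other 7 are textbook p53 targets. All 10 genes were found in the count table, and 8 of them had at least 20 molecules summed over the epicardial cells of the 4 libraries, with Aen and Eda2r below that number.

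Embryonic hearts of stages E14.5 and E13.5 (days of gestation) were profiled by Drop-seq, a droplet method that gives each captured transcript a unique molecular identifier (UMI). The knockout hearts, called Lats CKO, carried Lats1/2 F/F (floxed Lats1 and Lats2) together with Wt1 CreERT2/+ and Rosa26mTmG/+. The control hearts carried Wt1 CreERT2/+ and Rosa26mTmG/+ with no floxed Lats genes. Every group thus had the Cre driver and the reporter. The driver makes a tamoxifen-dependent Cre where Wt1 is active, chiefly in the epicardium, and Rosa26mTmG switches from tdTomato to EGFP in recombined cells and their descendants. There was 1 library per genotype and stage, so a difference between genotypes within a stage has no replicate check, and its intervals cover counting error only. Nothing in the sources used here says how many embryos went into a library, whether the libraries came from separate litters, or whether and when tamoxifen was given.

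The epicardium is the mesothelial sheet on the surface of the heart, and some of its cells leave it to become cardiac fibroblasts and mural cells. Lats1 and Lats2 are the kinases of the Hippo pathway that restrain the co-activators YAP and TAZ. p53, encoded by Trp53, is stabilised in stressed cells and binds DNA elements made of a pair of 10-base half-sites. Its targets halt the cell cycle (Cdkn1a), promote cell death (Bax), act in the DNA damage response or mark p53 itself for breakdown (Mdm2).

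The windows from 250 bases before to 50 bases after the transcription start were read from RefSeq (GRCm38.p6, the build also called mm10), and 8 of the 10 genes had a window there, all but Trp53inp1 and Zmat3. A p53 half-site, searched on both strands, was found in 5 of these genes and in 8.36% of 32851 windows of all genes. A pair of half-sites separated by at most 13 bases was found in 0.0731% of windows, and among the 10 genes in the Cdkn1a window alone. Cdkn1a had half-sites starting 73 and 51 bases before its start, Ccng1 had a half-site 185 bases before, Bax 201 bases before and Mdm2 186 bases before, and a window of Aen had a half-site 121 bases before its start. The windows of Phlda3, Sesn2 and Eda2r held none, and neither did a second Cdkn1a window at chr17:29093519-29093818. The windows of 4 genes are shown because these genes carry most of the counts described here and differ in how many half-sites they hold. Each runs 5′ to 3′ on the gene's strand over the 250 bases before the start, with half-sites in capitals.
Cdkn1a, chr17:29090729-29090978, plus strand: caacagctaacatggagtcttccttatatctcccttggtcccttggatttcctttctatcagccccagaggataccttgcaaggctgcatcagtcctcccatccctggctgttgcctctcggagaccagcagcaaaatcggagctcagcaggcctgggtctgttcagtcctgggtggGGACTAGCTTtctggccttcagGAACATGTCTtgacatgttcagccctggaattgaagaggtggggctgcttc
Ccng1, chr11:40755287-40755536, minus strand: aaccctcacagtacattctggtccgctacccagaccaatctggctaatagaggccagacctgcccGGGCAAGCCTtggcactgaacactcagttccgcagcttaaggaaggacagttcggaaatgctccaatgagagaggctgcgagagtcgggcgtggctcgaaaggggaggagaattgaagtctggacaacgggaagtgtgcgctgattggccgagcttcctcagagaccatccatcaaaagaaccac
Bax, chr7:45466899-45467148, minus strand: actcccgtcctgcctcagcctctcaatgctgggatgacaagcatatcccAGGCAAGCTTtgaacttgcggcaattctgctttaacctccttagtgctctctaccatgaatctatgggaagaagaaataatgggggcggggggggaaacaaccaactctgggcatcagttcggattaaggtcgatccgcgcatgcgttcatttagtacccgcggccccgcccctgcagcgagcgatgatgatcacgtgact
Mdm2, chr10:117710759-117711008, minus strand: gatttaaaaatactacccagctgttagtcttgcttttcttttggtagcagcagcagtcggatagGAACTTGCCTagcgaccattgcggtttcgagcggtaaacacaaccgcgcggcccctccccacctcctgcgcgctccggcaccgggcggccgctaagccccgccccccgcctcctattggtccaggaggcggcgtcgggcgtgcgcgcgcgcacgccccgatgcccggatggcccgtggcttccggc
A match describes letters in a window, and binding was not measured here.

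Epicardial cells were gated one by one on 15 marker genes such as Wt1, Upk3b, Msln and Tbx18, and the gated cells are called epicardial-like. The gate took 182 cells in Lats CKO E14.5, 67 in control E14.5, 189 in Lats CKO E13.5 and 99 in control E13.5, which is 537 of 21495 cells kept. Of these, 519 fell in the epicardial cluster when the same cells were clustered on their variable genes. The summed epicardial markers stood at 6624 and 6680 CPM (UMIs scaled per-million by the total of the class in that library) in Lats CKO E14.5 and E13.5, against 6547 and 6625 CPM in the controls. Summed over cells, 493684 and 696566 UMIs were available from Lats CKO and 163734 and 346392 UMIs from control at E14.5 and E13.5. The median epicardial-like cell had 1354 and 2552 UMIs in Lats CKO and 1478 and 1894 in control at these stages. The number of cells and of UMIs limits the precision of every value below, most of all in control E14.5, where 1 UMI equals 6.11 CPM.

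Other features moved with genotype in the same cells, and their part in the results was not tested. The 12 fibroblast markers summed to 19259 and 18416 CPM in Lats CKO E14.5 and E13.5, and to 29199.8 and 19813 CPM in control, with none at 0. The 14 cardiomyocyte markers, all detected in every library, summed to 7096 and 5419 CPM in Lats CKO and to 6511 and 4053 CPM in control. The 10 macrophage markers summed to 144 and 73.2 CPM in Lats CKO and to 61.1 and 57.7 CPM in control, with 0 and 7 of them at 0 in Lats CKO and 6 and 8 in control. The 10 mural markers summed to 427 and 475 CPM in Lats CKO and to 354 and 245 CPM in control, with 0 and 1 at 0 in Lats CKO and 2 and 4 in control. The 10 endocardial markers summed to 1155 and 1596 CPM in Lats CKO and to 1533 and 2165 CPM in control, with 4 and 0 at 0 in Lats CKO and 2 and 1 in control. All 5 hepatocyte markers were at 0. Of 15 early response genes, which handling of tissue can induce, 5 had counting intervals below 0 at both stages, against 1.21% of all genes, among them Fos at 826 and 853 CPM in Lats CKO and 1386 and 1983 CPM in control. In fibroblast-like, cardiomyocyte-like, haemoglobin-rich and mural-like cells 14 such genes were counted. Those below 0 at both stages were 5 in fibroblast-like cells (1.32% of all genes) and 3 in cardiomyocyte-like cells (3.9% of all genes). They were 5 in haemoglobin-rich cells and 2 in mural-like cells, for which the share of all genes was not taken. In valve mesenchyme-like and endothelial-like cells 0 of 13 were below 0 at both stages, and in endocardial-like and macrophage-like cells 0 of 14. The 5 deepest cells held 31.6% and 13.99% of the UMIs of Lats CKO E14.5 and E13.5, and 33.0% and 29.0% of those of control. Egfp, the reporter of recombination, stood at 587 and 632 CPM in Lats CKO and 36.6 and 77.9 CPM in control. Lats2 had 48.6 and 34.5 CPM in Lats CKO and 85.5 and 69.3 CPM in control, with log2 ratios of -0.84 (95% counting interval -1.82 to 0.25) and -1.01 (-1.89 to -0.13), and Lats1 had 20.3 and 18.7 CPM against 48.9 and 28.9 CPM. A 3' tag outside the deleted part says nothing of the deletion, and the place of the tags was not analysed here.

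The first comparison asked whether the p53 targets differ between Lats CKO and control epicardial-like cells. Of the targets that were not picked on this contrast, Ccng1 was higher in Lats CKO at both stages beyond counting error, Zmat3 at E14.5, and Mdm2, the main brake on p53, at neither stage. Among the 5 unpicked targets with at least 20 UMIs, 1 had counting intervals above 0 at both stages (Ccng1) and 0 had intervals below 0 at both. Over all 9728 genes with at least 20 UMIs the share above 0 at both stages was 1.22%. In 2 of the 5 (Ccng1 and Zmat3) both Lats CKO libraries stood above both control libraries, against 17.9% of all genes. Their median log2 ratio was 0.91 at E14.5 and 0.11 at E13.5, against -0.03 and 0.01 over all genes. Cdkn1a and Phlda3 also had intervals above 0 at both stages and Bax at E13.5, but these 3 were picked for being higher here, so nothing is read from that. The log2 ratios are of Lats CKO CPM over control CPM with 0.5 count added to each sum.

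**Figure D1:**
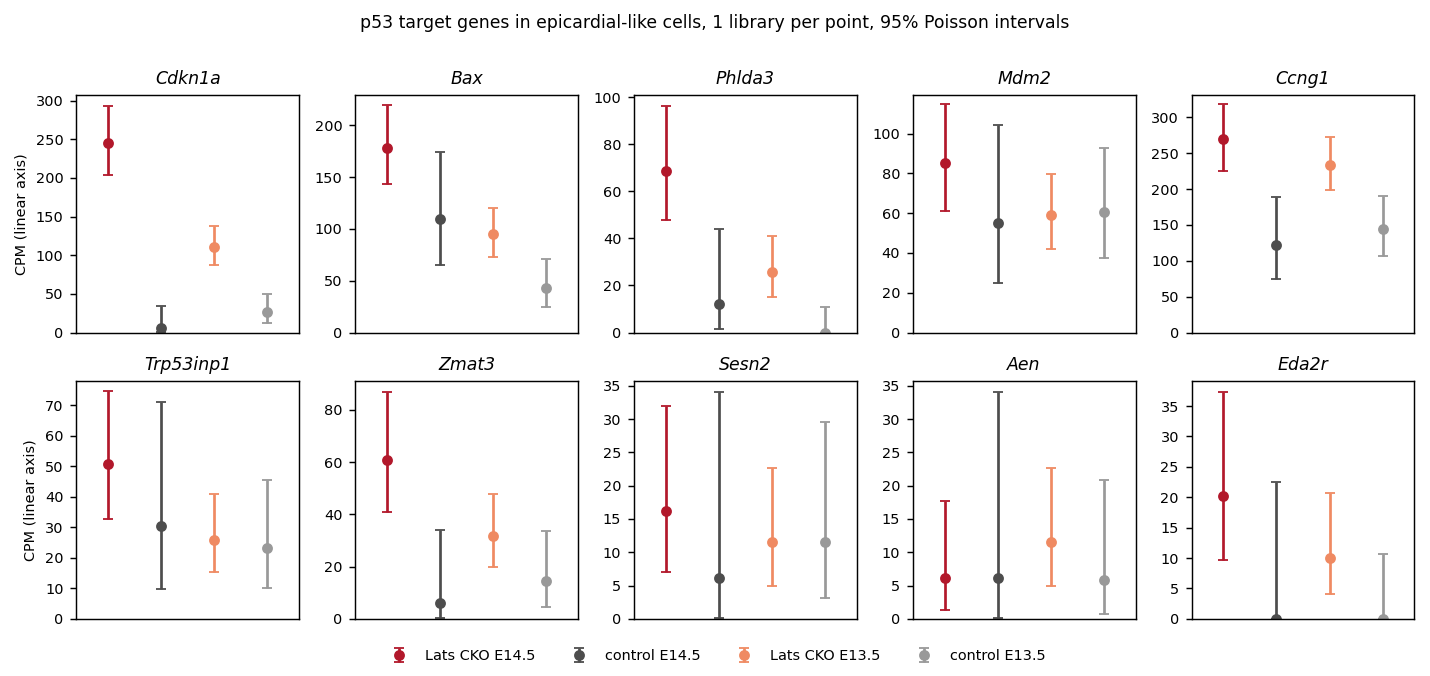
Level of each of the 10 p53 target genes in epicardial-like cells, in CPM on linear axes that start at 0. Each point is 1 library, in the order Lats CKO E14.5, control E14.5, Lats CKO E13.5 and control E13.5, and bars are 95% Poisson intervals, which cover counting error only. Cdkn1a stood at 245 and 111 CPM in Lats CKO, against 6.11 and 26.0 CPM in control, while Mdm2 overlapped between genotypes.

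Among the targets of the cell cycle, Cdkn1a encodes an inhibitor of cyclin-dependent kinases (chr17:29090976-29100727 in mm10); its span overlaps another annotated gene, and how reads were split is not given in the sources used here. Epicardial-like cells had 245 and 111 CPM of Cdkn1a in Lats CKO E14.5 and E13.5 (121 and 77 UMIs), against 6.11 and 26.0 CPM in control (1 and 9 UMIs). Both Lats CKO libraries were above both controls, and the Lats CKO value was higher at E14.5 than at E13.5. The log2 ratio was 4.75 (2.82 to 10.64) at E14.5, where control had 1 UMI, and 2.02 (1.09 to 3.27) at E13.5. Without the 5 deepest cells of each library these were 3.97 (2.02 to 9.87) and 1.65 (0.71 to 2.90). A Cdkn1a UMI was seen in 49 of 182 and 37 of 189 Lats CKO cells, and in 1 of 67 and 3 of 99 control cells. In control E13.5, 7 of the 9 UMIs came from 1 cell, while in Lats CKO the 5 richest cells held 40.5% and 33.8% of the Cdkn1a UMIs. Every cell was also thinned to 500 UMIs at random, with shares averaged over 100 draws. The share of cells with Cdkn1a was 9.70% and 6.51% in Lats CKO, against 0.433% and 1.18% in control. Cardiomyocyte-like cells, in which Cdkn1a is also made, had thinned shares of 3.18% and 3.07% in Lats CKO and 3.21% and 4.07% in control.

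Ccng1 encodes cyclin G1, a p53 target that takes part in the control of Mdm2 (chr11:40748552-40755311). It stood at 269 and 234 CPM in Lats CKO E14.5 and E13.5 (133 and 163 UMIs), against 122 and 144 CPM in control (20 and 50 UMIs). The libraries of the genotypes did not overlap, and the stages lay close together within each genotype. The log2 ratio was 1.11 (0.46 to 1.90) at E14.5 and 0.69 (0.23 to 1.18) at E13.5. Across both stages, edgeR's quasi-likelihood test with genotype and stage as factors gave a log2 ratio of 0.89 (SE 0.275, n = 2 libraries per genotype), higher in Lats CKO at both stages, with an unadjusted p of 0.00309 and an adjusted p of 0.202, so Ccng1 did not pass. Without the 5 deepest cells the ratios by stage were 1.84 (0.75 to 3.44) and 0.55 (0.05 to 1.09).

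Among the targets of cell death, Bax encodes the protein that opens the outer mitochondrial membrane (chr7:45461697-45466898). It stood at 178 and 94.8 CPM in Lats CKO E14.5 and E13.5 (88 and 66 UMIs), against 110 and 43.3 CPM in control (18 and 15 UMIs). Each Lats CKO library was above the control of its own stage, but Lats CKO E13.5 was below control E14.5, so the groups overlapped across stages. The log2 ratio was 0.67 (-0.05 to 1.52) at E14.5 and 1.09 (0.31 to 2.05) at E13.5. Bax was also higher at E14.5 than at E13.5 in either genotype, with log2 ratios of 0.91 (0.43 to 1.40) in Lats CKO and 1.34 (0.27 to 2.44) in control. Stage cannot be told from library here. Rpl5 had 411 and 415 CPM in Lats CKO and control at E14.5, and 35.9 and 28.9 CPM at E13.5. Rpl11 had 784 and 794 CPM at E14.5, and 83.3 and 49.1 CPM at E13.5. The cause of the stage differences was not tested. Under 5 of the other choices of cells, among them the stricter gate, the E14.5 interval of Bax excluded 0. Bax did not have intervals above 0 at both stages without the 5 deepest cells, or with the median ratio of all genes set to 0. Since Bax was picked on this contrast, nothing is read from these choices.

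Phlda3 encodes a small membrane-binding protein that restrains the kinase Akt (chr1:135766119-135769136). It stood at 68.9 and 25.8 CPM in Lats CKO E14.5 and E13.5 (34 and 18 UMIs), against 12.2 CPM in control E14.5 (2 UMIs) and 0 in control E13.5, where a count of 0 allows up to 8.66 CPM. Both Lats CKO libraries were above both controls. The log2 ratio at E14.5 was 2.19 (0.53 to 5.60), and at E13.5 the counting interval of the log2 ratio began at 1.13. Taking the Lats CKO value as measured, Phlda3 was at E13.5 at least 2.98-fold higher than the floor of 3 counts in the control library. In Lats CKO E14.5, 10 of the 34 UMIs were in 1 cell, and without the 5 deepest cells the E14.5 ratio was 1.75 (-0.42 to 7.68).

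The other death-related targets gave few counts. Trp53inp1, which encodes a nuclear protein that strengthens p53-driven death, stood at 50.6 and 25.8 CPM in Lats CKO E14.5 and E13.5 (25 and 18 UMIs), against 30.5 and 23.1 CPM in control (5 and 8 UMIs). The libraries overlapped, and the log2 ratios were 0.62 (-0.68 to 2.47) and 0.11 (-1.11 to 1.57). The edgeR log2 ratio over both stages was 0.43 (SE 0.564, adjusted p 0.928). Eda2r, a receptor of the tumour necrosis factor family, had 10 and 7 UMIs in Lats CKO, or 20.3 and 10.05 CPM, and 0 UMIs in control, where a count of 0 allows up to 18.3 and 8.66 CPM. The counting intervals of its log2 ratios began at -0.43 and -0.48, so a difference beyond counting error was not detectable at either stage. Aen, an apoptosis-enhancing nuclease, had 3 and 8 UMIs in Lats CKO and 1 and 2 UMIs in control, and at this depth no difference was detectable.

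Mdm2 encodes the ubiquitin ligase that marks p53 for breakdown (chr10:117688875-117710758). It stood at 85.1 and 58.9 CPM in Lats CKO E14.5 and E13.5 (42 and 41 UMIs), against 55.0 and 60.6 CPM in control (9 and 21 UMIs). The genotypes overlapped, with Lats CKO E13.5 just below control E13.5. The log2 ratios were 0.57 (-0.43 to 1.85) and -0.06 (-0.83 to 0.79), and edgeR gave 0.25 over both stages (SE 0.400, adjusted p 0.937). Trp53 itself had 70.9 and 122 CPM in Lats CKO, against 73.3 and 72.2 CPM in control, with log2 ratios of -0.09 at E14.5 and 0.74 (0.10 to 1.46) at E13.5, and an edgeR ratio of 0.44 (SE 0.365, adjusted p 0.834).

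Zmat3, an RNA-binding zinc finger protein, stood at 60.8 and 31.6 CPM in Lats CKO E14.5 and E13.5 (30 and 22 UMIs), against 6.11 and 14.4 CPM in control (1 and 5 UMIs). Both Lats CKO libraries were above both controls. The log2 ratios were 2.75 (0.73 to 8.67) and 1.02 (-0.31 to 2.89), and edgeR gave 1.84 (SE 0.666, unadjusted p 0.00996, adjusted p 0.332), so Zmat3 did not pass. In Lats CKO E14.5 the 5 richest cells held 76.7% of its UMIs, and without the 5 deepest cells of each library the E14.5 ratio was 1.19 (-1.11 to 7.14). Sesn2, a stress-induced restraint on mTORC1, stood at 16.2 and 11.5 CPM in Lats CKO and 6.11 and 11.5 CPM in control, and the libraries overlapped.

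In the edgeR test of genotype in epicardial-like cells, 4 of the 7 targets not chosen on this contrast were tested and 0 passed an adjusted p of 0.05, against 0.4% of 7509 genes (13 higher and 17 lower). An unadjusted p under 0.05 was reached by 2 of them, Ccng1 and Zmat3, and by 642 of the 7509 genes. DESeq2 called 0 of the 7, with 0 at an unadjusted p under 0.05, against 94 of 12044 genes. Sesn2, Aen and Eda2r had too few counts for the edgeR test, which left 1 residual degree of freedom.

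Lists of other genes of the p53 network were read against the 1.22% and 1.21% of all genes with intervals above and below 0 at both stages, and the 642 of 7509 genes with an unadjusted p under 0.05. None of 12 regulators of p53 with at least 20 UMIs, Trp53 included, had intervals on the same side of 0 at both stages. Their median log2 ratios were -0.08 and 0.47, and edgeR called 0 of 8 tested, with 0 at an unadjusted p under 0.05. Of 7 other targets of arrest and repair, 1 was above 0 at both stages. This was Psrc1, which encodes a microtubule protein of the spindle, with 50.6 and 53.1 CPM in Lats CKO and 12.2 and 14.4 CPM in control and log2 ratios of 1.76 (0.05 to 5.17) and 1.76 (0.53 to 3.58). Of 9 other targets of death and metabolism, 1 was above 0 at both stages. This was Rps27l, a ribosomal protein relative, with 589 and 475 CPM in Lats CKO and 318 and 378 CPM in control and log2 ratios of 0.88 (0.46 to 1.35) and 0.33 (0.03 to 0.63). edgeR called 0 of 5 and 0 of 5 genes tested in these lists, with 2 and 1 at an unadjusted p under 0.05, and gave Psrc1 an adjusted p of 0.211 and Rps27l one of 0.458. The medians of these lists were 1.58 and -0.48 for arrest and repair, and 0.36 and 0.07 for death and metabolism. Both Lats CKO libraries were above both controls in 5 of the 9 genes of death and metabolism, and below both in 0. These counts were 2 and 2 of the 7 genes of arrest and repair, and 2 and 3 of the 12 regulators. Over all genes the shares were 17.9% above and 16.9% below.

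Among other inhibitors of cyclin-dependent kinases, 5 had at least 20 UMIs and Cdkn1c was the 1 below 0 at both stages, against 1.21% of all genes. Counting intervals were above 0 at both stages in 0 of the 5. In 4 of the 5, both Lats CKO libraries were above both controls, against 17.9% of all genes. The median log2 ratios of the 5 were 0.43 at E14.5 and 1.06 at E13.5. Cdkn1c, which encodes an inhibitor of the same family as Cdkn1a, had 1880 and 2074 CPM in Lats CKO E14.5 and E13.5, against 3781 and 3207 CPM in control. Both Lats CKO libraries were below both controls, with log2 ratios of -1.01 (-1.16 to -0.86) and -0.63 (-0.74 to -0.51), and edgeR gave -0.81 (SE 0.202, adjusted p 0.0672), so it did not pass. Cdkn1c was below 0 at both stages beyond counting error in mural-like, endothelial-like, endocardial-like and cardiomyocyte-like cells as well. Of 18 genes of cycling cells, 0 had intervals above 0 at both stages, although in 12 of them both Lats CKO libraries were above both controls, against the 17.9% of all genes given above. Mki67 had 194 and 230 CPM in Lats CKO and 128 and 60.6 CPM in control, and Top2a had 257 and 395 CPM in Lats CKO and 208 and 176 CPM in control. At E13.5 their log2 ratios were 1.89 (1.26 to 2.65) and 1.16 (0.76 to 1.59), and edgeR called 0 of the 18, with 7 at an unadjusted p under 0.05, against 642 of all 7509 genes.

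The second question was how the targets vary over the heart. For Cdkn1a, epicardial-like cells stood first among the classes in Lats CKO and last in control by the mean of both stages. In Lats CKO, epicardial-like cells had the highest mean of both stages at 178 CPM, though their range overlapped that of macrophage-like cells (129 CPM), and endothelial-like (87.4 CPM), cardiomyocyte-like (71.1 CPM) and fibroblast-like cells (70.9 CPM) followed, with mural-like cells last (17.3 CPM). In control, macrophage-like cells were highest at 140 CPM and did not overlap the next class. Epicardial-like cells had the lowest mean at 16.0 CPM, below valve mesenchyme-like cells (44.5 CPM) without overlap. Their range of 6.11 to 26.0 CPM did overlap that of mural-like cells, which ran from 17.5 to 113 CPM. The 6 classes between cardiomyocyte-like (87.9 CPM) and haemoglobin-rich cells (50.04 CPM) overlapped their neighbours in that order.

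**Figure D2:**
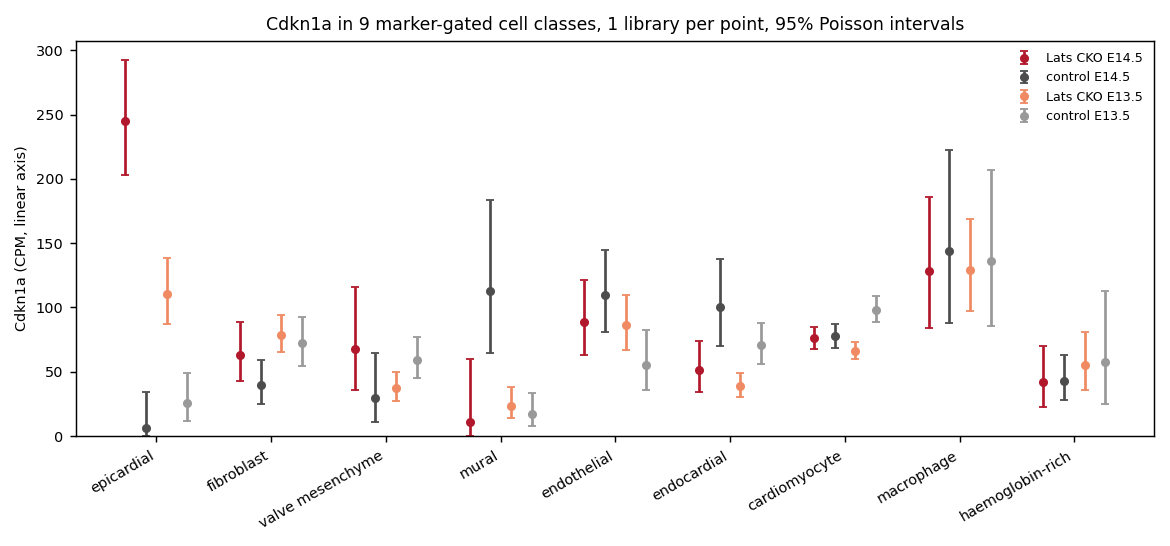
Cdkn1a in 9 marker-gated cell classes, in CPM on a linear axis. Each point is 1 library, in the order Lats CKO E14.5, control E14.5, Lats CKO E13.5 and control E13.5 within a class, and bars are 95% Poisson intervals, which cover counting error only. Epicardial-like cells of Lats CKO E14.5 are highest at 245 CPM, and those of the controls are lowest or near lowest at 6.11 and 26.0 CPM.

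The genotype ratio of Cdkn1a in epicardial-like cells was above that of all 8 other classes at both stages, the pattern for which the gene was chosen. The other classes had median log2 ratios of -0.10 at E14.5 and -0.11 at E13.5. Endocardial-like cells went the other way, with 51.4 and 38.8 CPM in Lats CKO E14.5 and E13.5 and 100.01 and 70.5 CPM in control. The libraries did not overlap, and the log2 ratios were -0.96 and -0.86, with an edgeR ratio of -0.90 (SE 0.262, unadjusted p 0.0105, adjusted p 0.9996). Cardiomyocyte-like cells had 76.2 and 66.1 CPM in Lats CKO and 77.4 and 98.3 CPM in control, a log2 ratio near 0 at E14.5 and -0.57 at E13.5.

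Bax differed from Cdkn1a in its spread over classes. At E13.5 its log2 ratio was above 0 in 8 of 8 other classes, with counting intervals above 0 in 7, a median of 1.11 and a range of 0.37 to 1.38. Epicardial-like cells, at 1.09, lay inside this range and above 4 of the 8. At E14.5 the other classes had a median of 0.13, and of these only macrophage-like cells had an interval above 0 (0.76). By edgeR, Bax had an unadjusted p under 0.05 in fibroblast-like (log2 0.81, SE 0.253, adjusted p 0.475), valve mesenchyme-like (0.77, adjusted p 0.9999), endocardial-like (0.80, adjusted p 0.9996) and macrophage-like cells (1.04, adjusted p 0.996), higher in Lats CKO, and passed in none of them. In cardiomyocyte-like cells Bax stood at 111 and 101 CPM in Lats CKO E14.5 and E13.5, against 104 and 41.1 CPM in control, with control E13.5 apart from the other libraries and log2 ratios of 0.10 (-0.10 to 0.30) and 1.29 (1.04 to 1.55).

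Ccng1 and Zmat3 were highest in epicardial-like cells in Lats CKO and not in control. Ccng1 had a higher ratio in epicardial-like cells than in all 8 other classes at both stages, and the medians of those classes were -0.15 and -0.09. In level, epicardial-like cells led for Ccng1 in Lats CKO (252 CPM, overlapping cardiomyocyte-like cells at 224 CPM) and came behind cardiomyocyte-like cells in control (133 against 234 CPM, with no overlap). Phlda3 was highest in epicardial-like cells in Lats CKO (47.4 CPM, not overlapping fibroblast-like cells at 17.6 CPM) and lowest there in control (6.11 CPM, overlapping its neighbour), the pattern for which it was picked. Zmat3 was highest in epicardial-like cells in Lats CKO (46.2 CPM, not overlapping fibroblast-like cells at 23.4 CPM) and came behind 4 classes in control (10.3 CPM), where valve mesenchyme-like cells led at 30.6 CPM.

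For Mdm2 and Trp53inp1, epicardial-like cells were among the 3 highest classes in either genotype. Mdm2 in Lats CKO was level between valve mesenchyme-like (72.01 CPM) and epicardial-like cells (71.97 CPM), and in control epicardial-like cells led at 57.8 CPM with overlap. Its log2 ratios in the other classes ranged from -1.22 to 1.52 at E14.5. Trp53inp1 was highest in valve mesenchyme-like cells in Lats CKO (58.4 CPM) and in control (45.1 CPM), without overlap with the class next in mean. Epicardial-like cells stood at 38.2 and 26.8 CPM. Macrophage-like cells of control ranged from 0 to 49.6 CPM, which overlapped the valve mesenchyme-like range of 44.3 to 45.9 CPM. Eda2r had 0 UMIs in macrophage-like cells of every library.

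**Figure D3:**
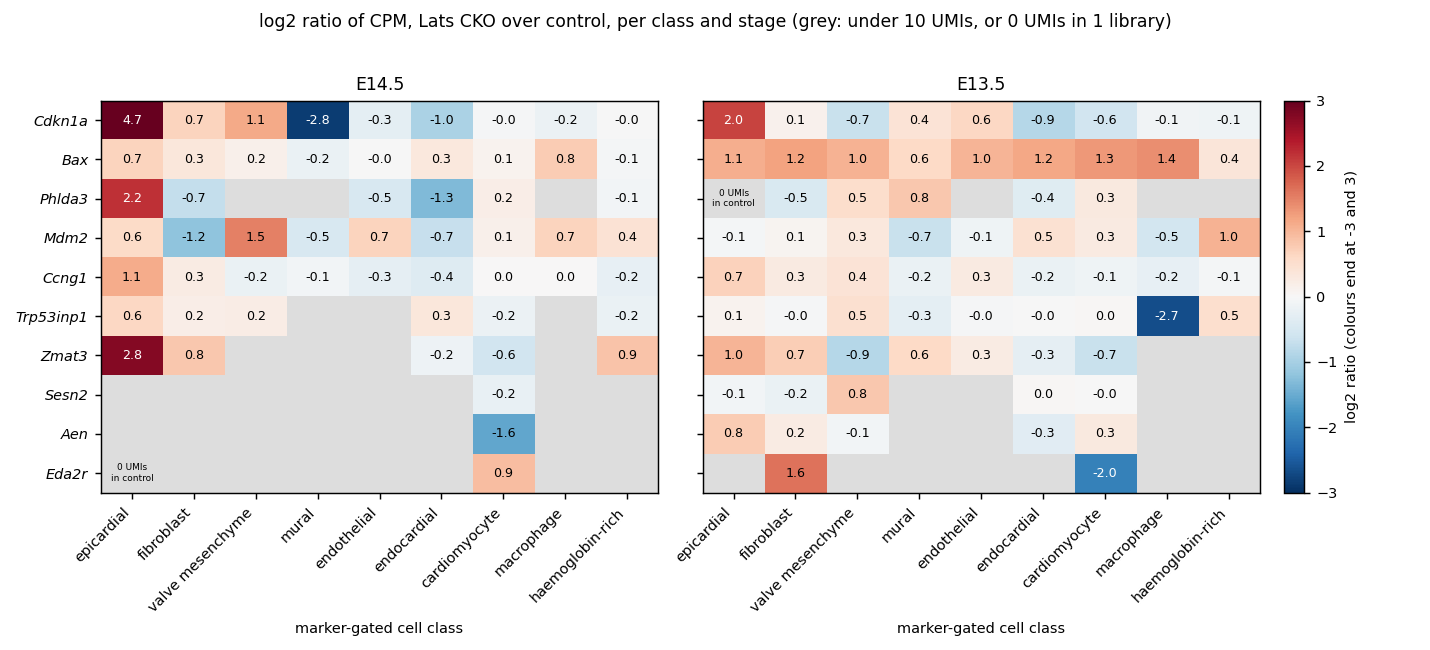
Log2 ratio of CPM, Lats CKO over control, for the 10 p53 target genes (down) in 9 cell classes (across) at E14.5 and E13.5. Colour and number give the ratio, colours end at -3 and 3, and grey cells had under 10 UMIs or 0 UMIs in 1 of the libraries. Cdkn1a is high in epicardial-like cells, at 4.75 and 2.02, while at E13.5 Bax is above 0 in every class.

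In fibroblast-like and cardiomyocyte-like cells all 10 targets had at least 20 UMIs and 0 had intervals above 0 at both stages, against 1.44% and 2.83% of all genes, and 0 had intervals below 0 at both, against 1.32% and 3.9%. Of targets with at least 20 UMIs, 1 of 4 in macrophage-like cells was above 0 at both stages (Bax). In endocardial-like cells 1 of 9 was below 0 at both (Cdkn1a). Valve mesenchyme-like, mural-like, endothelial-like and haemoglobin-rich cells had 0 on either side. For these classes the share of all genes was not taken. No target passed the edgeR test of genotype in any of the 8 other classes, and DESeq2 also called 0. The shares of all genes called by edgeR there were 0.217% in fibroblast-like, 0.0117% in valve mesenchyme-like, 0.094% in mural-like (0.047% higher), 0.0137% in endothelial-like, 0.0308% in endocardial-like, 0.0325% in haemoglobin-rich and 0.0% in cardiomyocyte-like and macrophage-like cells. Apart from the 4 classes named for Bax and the endocardial-like cells named for Cdkn1a, no target had an unadjusted p under 0.05 in edgeR, and in DESeq2 there was 1, in cardiomyocyte-like cells. The median log2 ratio of all genes lay within 0.1 of 0 in every class and stage but haemoglobin-rich cells at E13.5 (0.15).

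A replicated contrast was available between classes, because each library held all 9. In an edgeR fit with library as a block, epicardial-like cells were set against the mean of the 8 other classes. Of 4 targets tested that were not chosen on epicardial cells, 3 were higher in epicardial-like cells, against 18.8% of 11249 genes. Ccng1 was higher by a log2 difference of 1.23 (SE 0.120, adjusted p 1.25e-12), Zmat3 by 1.59 (SE 0.307, adjusted p 3.39e-05) and Trp53inp1 by 0.72 (SE 0.261, adjusted p 0.0275), and Mdm2 stood at 0.46 (SE 0.193, adjusted p 0.0568). This contrast mixes genotypes, and its fit had no term for a genotype effect that differs between classes. Its 24 residual degrees of freedom come from class sums of only 4 libraries. Zmat3 in control stood at 10.3 CPM in epicardial-like cells, below valve mesenchyme-like cells at 30.6 CPM. In the control libraries alone 1 of 3 tested targets passed, Ccng1 at 0.59 (SE 0.205, adjusted p 0.0396), against 11.8% of genes, while Trp53inp1 stood at 0.23 (adjusted p 0.834), Mdm2 at 0.36 (adjusted p 0.493) and Zmat3 was not tested. Trp53inp1 also lost its call without Lats CKO E14.5 (0.28, adjusted p 0.571) or without control E14.5 (0.69, adjusted p 0.0660), and Mdm2 gained one without control E13.5 (0.56, adjusted p 0.0409). With no filter on low counts 4 of 7 passed, with Eda2r at 2.13, against 9.29% of genes, and with DESeq2 5 of 7 passed, with Mdm2 at 0.52 and Eda2r at 1.76, against 13.6%.

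Whether the genotype effect itself was larger in epicardial-like cells than in the other classes was tested as an interaction, added after the data were seen. Ccng1 had an effect larger by 0.91 on the log2 scale (SE 0.227, unadjusted p 0.000204, adjusted p 0.122), Zmat3 by 2.01 (SE 0.650, unadjusted p 0.00325, adjusted p 0.346), Trp53inp1 by 0.80 (SE 0.549, adjusted p 0.807) and Mdm2 by 0.17 (SE 0.406, adjusted p 1). By edgeR 0 of 4 targets passed, against 0.109% of 11938 genes (0.0503% higher), and 2 had an unadjusted p under 0.05, against 893 of the 11938. DESeq2 called 0 of 7, with 3 at an unadjusted p under 0.05, against 888 of 20580 genes. With a gate that asked for 4 epicardial markers, Ccng1 passed (1.03, SE 0.237, adjusted p 0.0405), against 0.209% of genes. At the gate used here, no difference of the genotype effect between epicardial-like and other cells passed for these 4 genes.

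The last comparison was within Lats CKO epicardial-like cells. Cells with a Cdkn1a UMI were set beside cells without, which gives values of 1 library per stage and no test. In both libraries the cells with Cdkn1a had more Ccng1 and Zmat3. Ccng1 had 351 CPM in the 49 cells with and 170 CPM in the 133 cells without Cdkn1a at E14.5, a log2 ratio of 1.03 (0.49 to 1.63). At E13.5 it had 504 CPM in the 37 cells with and 158 CPM in the 152 cells without (1.67, 1.21 to 2.13). Zmat3 had 99.9 against 13.4 CPM at E14.5 (2.70, 1.19 to 5.26) and 65.5 against 22.1 CPM at E13.5 (1.58, 0.20 to 2.91), in cells with and without Cdkn1a. Without the 5 deepest cells these ratios were 0.77 and 1.85 for Ccng1 and 2.07 and 1.80 for Zmat3, with intervals above 0 throughout.

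Eda2r followed the same split, with 33.3 CPM in cells with and 4.48 CPM in cells without Cdkn1a at E14.5 (9 and 1 UMIs) and 39.3 against 1.84 CPM at E13.5 (6 and 1 UMIs). The log2 ratios were 2.39 (0.04 to 8.35) and 3.95 (1.37 to 9.94), and without the 5 deepest cells the E14.5 ratio was 1.70 (-2.30 to 7.85). Bax was higher in cells with Cdkn1a at E13.5 (164 against 75.4 CPM, log2 1.13, 0.34 to 1.87) and not beyond counting error at E14.5 (189 against 166 CPM, 0.18). Without the 5 deepest cells the E13.5 interval of Bax included 0 (0.96, -0.01 to 1.82). Phlda3, Mdm2 and Trp53inp1 had ratios between 0.42 and 1.22 with intervals that included 0 at both stages, and Trp53 stood at 0.13 and -0.14. Cells with Cdkn1a were deeper, with a median of 1964 and 2913 UMIs against 1182 and 2504.5 in cells without.

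**Figure D4:**
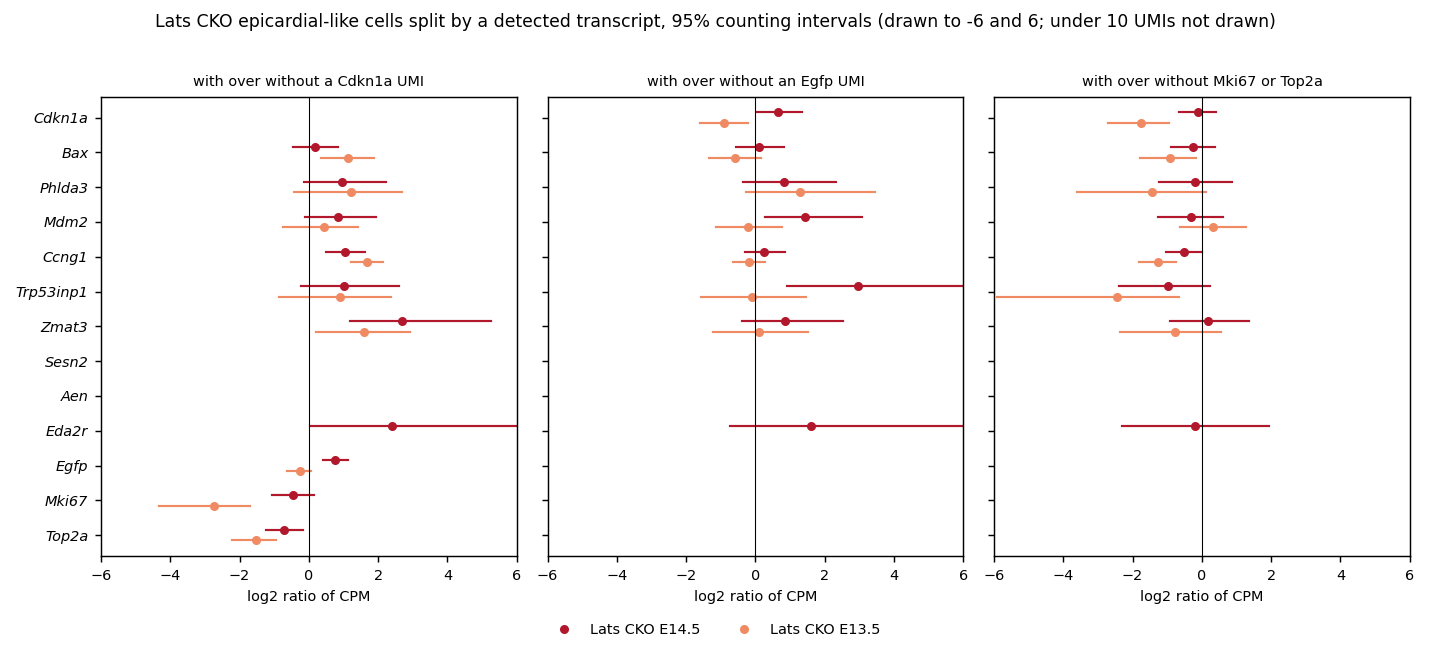
Log2 ratio of CPM in Lats CKO epicardial-like cells with over without a UMI of Cdkn1a (left), Egfp (middle) or Mki67 or Top2a (right). Each point is 1 library (E14.5 dark, E13.5 light), bars are 95% counting intervals drawn to -6 and 6, and genes with under 10 UMIs are not drawn. Ccng1 is higher in cells with Cdkn1a at both stages, at 1.03 and 1.67, and Cdkn1a differs in sign between stages in the Egfp split.

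The detection of any other of the 10 targets went with that of Cdkn1a. At E14.5 a Cdkn1a UMI was seen in 38 of 86 cells with another target and 11 of 96 cells without. At E13.5 it was seen in 31 of 125 cells with and 6 of 64 cells without. With every gene read in cells thinned to 500 UMIs, the shares were 16.1% (95% counting interval 7.15% to 32.1%) with and 7.85% (3.96% to 13.53%) without at E14.5, and 13.97% (4.94% to 26.3%) with and 4.13% (1.56% to 8.91%) without at E13.5. The intervals, taken from counts averaged over the draws and rounded, overlapped at both stages after thinning.

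Egfp marks cells in which Cre has acted on the reporter. After thinning it was seen in 20.9% and 22.5% of Lats CKO epicardial-like cells at E14.5 and E13.5, against 1.37% and 1.92% in control. Cardiomyocyte-like cells, taken as the background class, had thinned shares of 0.921% and 1.11% in Lats CKO and 1.16% and 0.404% in control, with median depths of 1264, 2985, 1294 and 2010 UMIs. The control epicardial-like share was near this background at E14.5 and above that of the same library at E13.5, where its counting interval (0.246% to 7.11%) overlapped that of cardiomyocyte-like cells (0.132% to 0.947%). Not detecting Egfp in a cell does not show that it was unrecombined.

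The ratio of Cdkn1a between cells with and without Egfp had opposite signs in the Lats CKO libraries, and the difference was not tested. At E14.5 Cdkn1a was seen in 33 of 76 cells with Egfp (43.4%) and 16 of 106 cells without (15.1%), and at E13.5 in 16 of 88 cells with (18.2%) and 21 of 101 cells without (20.8%). Thinned to 500 UMIs, the shares were 14.48% (6.02% to 31.3%) with and 8.44% (4.38% to 14.1%) without at E14.5, and 6.46% (1.498% to 19.5%) with and 6.52% (3.31% to 12.2%) without at E13.5. In CPM, cells with Egfp had 279 and cells without had 175 CPM of Cdkn1a at E14.5, a log2 ratio of 0.65 (0.05 to 1.34). At E13.5 cells with Egfp had 80.6 and cells without had 150 CPM, a ratio of -0.89 (-1.60 to -0.21). Without the 5 deepest cells these were 0.49 (-0.21 to 1.24) and -0.85 (-1.59 to -0.15). Cells with Egfp had medians of 1951.5 and 3419.5 UMIs, against 1182.5 and 2098 in cells without. At E14.5 cells with Egfp also had more Mdm2 (108 against 37.5 CPM, log2 1.43, 0.26 to 3.06) and more Trp53inp1 (71.9 against 6.25 CPM, 2.97, 0.91 to 8.89, from 24 and 1 UMIs), which was not seen at E13.5 (-0.20 and -0.10). The control libraries held 1 and 3 cells with Cdkn1a in all, too few to split.

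Cdkn1a was set beside the proliferation genes Mki67 and Top2a, since its product stops the cell cycle. At E13.5, cells with an Mki67 or Top2a UMI had less Cdkn1a, 47.3 CPM against 164 CPM in cells without, a log2 ratio of -1.76 (-2.71 to -0.96). It was seen in 7 of 68 cells with (10.3%) and 30 of 121 cells without (24.8%), and in 1.79% (0.0791% to 16.2%) and 7.46% (4.01% to 12.97%) after thinning. At E14.5 the CPM did not differ beyond counting error, with 235 in cells with and 256 in cells without (-0.12, -0.66 to 0.42). Cdkn1a was seen there in 14 of 54 cells with (25.9%) and 35 of 128 cells without (27.3%), and in 4.43% (0.0937% to 19.0%) and 10.6% (6.02% to 16.2%) after thinning. Ccng1 had 224 against 321 CPM at E14.5 in cells with and without (-0.52, -1.04 to -0.01) and 132 against 319 CPM at E13.5 (-1.26, -1.81 to -0.75). Without the 5 deepest cells the Ccng1 ratio was 0.17 (-0.55 to 0.88) at E14.5, so its sign turned, and -1.20 (-1.79 to -0.66) at E13.5. Bax stood at -0.26 (-0.90 to 0.38) at E14.5 and at -0.93 (-1.78 to -0.16) at E13.5, where the interval reached 0 without the 5 deepest cells (-0.82, -1.79 to 0.03). Trp53inp1 stood at -0.99 (-2.38 to 0.24) at E14.5 and at -2.47 (-5.91 to -0.65) at E13.5, from 2 and 16 UMIs. Without the 5 deepest cells its E14.5 interval lay below 0, with an upper end of -0.71 from 0 and 10 UMIs. At E13.5 the Trp53inp1 ratio was then -2.36 (-5.80 to -0.55). Mdm2 intervals included 0 at both stages (-0.33 and 0.33). Cells with a proliferation transcript had medians of 2030 and 3454 UMIs at E14.5 and E13.5, against 1182.5 and 2173 in cells without.

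The same split by Egfp was made in fibroblast-like cells, part of which descend from the epicardium. Of the 1919 cells in this gate, 652 fell in the valve mesenchyme cluster. In Lats CKO, fibroblast-like cells with Egfp had more Cdkn1a than those without at both stages. At E14.5 they had 184 CPM in 38 cells with and 45.1 CPM in 371 cells without (log2 2.05, 0.86 to 3.13). At E13.5 they had 156 CPM in 70 cells with and 68.0 CPM in 546 cells without (1.22, 0.56 to 1.81). Ccng1 behaved alike, with 184 against 85.7 CPM at E14.5 (1.14, 0.03 to 2.07) and 214 against 91.6 CPM at E13.5 (1.23, 0.68 to 1.74). Mdm2 was higher in cells with Egfp at E13.5 (93.8 against 39.9 CPM, 1.26, 0.38 to 2.03) and Bax and Zmat3 at E14.5 (291 against 156 CPM, 0.93, 0.09 to 1.65, and 76.6 against 13.53 CPM, 2.52, 0.45 to 4.48). Mdm2, Bax and Zmat3 are given here at 1 stage each. Unlike the epicardial splits, this split was not repeated at equal depth or without the deepest cells. In control fibroblast-like cells Cdkn1a stood at 27.8 against 40.4 CPM at E14.5 and 67.9 against 72.5 CPM at E13.5, in 13 and 23 cells with Egfp and 453 and 405 cells without. These control ratios, 0.01 and 0.03, had intervals from -5.90 to 2.09 and from -1.77 to 1.22, so the difference between the genotypes in this split was not tested.

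Genes with a pattern like that of Cdkn1a were ranked by Pearson correlation of log2(CPM + 10) over 36 sums (9 classes in 4 libraries) among 7853 genes of at least 20 CPM on average. The sums share libraries, so the values are descriptive. The 5 highest were Dera (0.73), Trappc6a (0.68), Ap1b1 (0.66), Rab7 (0.63) and Gm8822 (0.62). In epicardial-like cells Dera had 38.5 and 38.8 CPM in Lats CKO E14.5 and E13.5, against 0 and 54.9 CPM in control. Trappc6a had 77.0 and 60.3 CPM in Lats CKO and 36.6 and 60.6 CPM in control, and Rab7 had 160 and 149 CPM in Lats CKO and 104 and 139 CPM in control. At E13.5 Dera was thus lower in Lats CKO and Trappc6a level. The targets that could be ranked stood far lower, with Bax at 0.24, Ccng1 at 0.14, Mdm2 at 0.10 and Trp53inp1 at -0.15.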

How the data were processed

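Cells of embryonic hearts were lysed in droplets and libraries made with Illumina Nextera XT, per the labels' protocols. The authors deposited UMI counts per gene and cell for 24849 cells and 30268 genes, and the submitters' processing notes name STAR, Picard and the mm10 build without versions. Cells were matched to libraries by the label in their names. A minimum of 500 UMIs and 300 genes per cell and a mitochondrial share up to 20% left 5597, 5505, 5915 and 4478 cells of Lats CKO E14.5, control E14.5, Lats CKO E13.5 and control E13.5 (medians of 1035, 955, 2015 and 1588.5 UMIs and 4.69%, 3.07%, 2.78% and 2.88% mitochondrial UMIs). Library pairs shared 2 to 4 barcodes. Scrublet called 2, 0, 0 and 7 doublets, too few for a working caller, so none were removed.

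A cell joined a class when it had at least 3 of its markers and led the next class by 0.25 in marker score. Between 26.5% and 31.1% of cells stayed unassigned. Of 1322 cells gated as erythroid, 762 were in the erythroid cluster, so they are called haemoglobin-rich. UMIs were summed per class and library. Exact Poisson and conditional binomial 95% intervals were used, which cover counting error only. edgeR 4.0.16 (R 4.3.3) quasi-likelihood tests with Benjamini-Hochberg adjustment over all genes used TMM and its filter on low counts, and were checked on simulated counts. DESeq2 1.42.0, no filter, total UMIs, other gates, other cells and omitted libraries were alternatives. Clustering used scanpy 1.11.5 (2000 variable genes, 30 components, 15 neighbours, resolution 1.0).

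Beside the 10 genes, the text names list genes past an adjusted p of 0.05 or with counting intervals on the same side of 0 at both stages, and the 5 most like Cdkn1a. Mki67 and Top2a are named because they define a split of the cells, and Rpl5 and Rpl11 because they differ between stages. The genes, lists and rules were chosen with earlier results of these data known.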

Additional observations from a re-analysis of the deposited data

Results flagged for a closer look

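In epicardial-like cells of Lats CKO, Cdkn1a differed in direction between the stages when cells with Egfp were set against cells without. The log2 ratio was 0.65 at E14.5 and -0.89 at E13.5. Each value comes from 1 library, and the difference between the stages was not tested. Cells with Egfp were deeper at both stages. With cells thinned to 500 UMIs, Cdkn1a was seen at E14.5 in 14.48% of cells with Egfp and 8.44% of cells without. At E13.5 these shares were nearly level, at 6.46% and 6.52%, and the counting intervals overlapped at both stages. Without the deepest cells of each library the log2 ratios were 0.49 (-0.21 to 1.24) at E14.5 and -0.85 (-1.59 to -0.15) at E13.5. The part that depth has in the CPM ratios was not tested.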

How the results depend on the processing

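No paired analysis was possible because the labels give no replicate numbers that tie libraries of different groups together; stage was a factor in the genotype fit and library a block in the fits over classes. The count of genes past an adjusted p of 0.05 for genotype in epicardial-like cells, 30, was 6 with DESeq2, 54 without the filter, 8 with the stricter gate and 15 with classes from clustering, and ranged from 24 to 177 when 1 library was left out (177 without control E14.5). Those fits had genotype alone, since 3 libraries leave no degree of freedom beside stage. In the class contrast, the targets that passed, 3, were 1 in control libraries only and 5 with DESeq2, and 2 to 4 when 1 library was left out. Its 3743 genes were 1965 in control libraries only. For the interaction, 0 targets became 1 with the stricter gate, and its 13 genes were 23 with DESeq2, 31 without the filter, 6 without the 5 deepest cells, 25 with the stricter gate and 4 to 38 when 1 library was left out. Without the 5 deepest cells Mdm2 reversed to -0.051 for genotype and -0.11 for the interaction. With 1 library left out, the Mdm2 interaction ranged from -0.092 (without Lats CKO E14.5) to 0.62, the Trp53inp1 genotype ratio from -0.022 (without Lats CKO E14.5) to 1.02 and the Trp53inp1 interaction from -0.45 (without control E13.5) to 2.12. The causes were not tested. Thinning to 1000 UMIs kept 123 of 182 Lats CKO epicardial-like cells at E14.5 and 168 of 189 at E13.5. At E14.5 the share of cells with Cdkn1a was then 26.6% with and 17.3% without Egfp. It was 10.2% with and 23.9% without Mki67 or Top2a. At E13.5 these shares were 10.5% and 11.7% for Egfp, and 5.40% and 13.4% for Mki67 or Top2a. The counting intervals of each pair overlapped. The fits with other cells and the interaction were chosen after seeing the data. Low counts in control E14.5 limit every ratio at that stage.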

Other observations

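Among 6 other stress genes with at least 20 UMIs, the metallothioneins Mt1 and Mt2, which bind metals, rose in Lats CKO epicardial-like cells. Mt1 had 436 and 235 CPM in Lats CKO E14.5 and E13.5, against 128 and 46.2 CPM in control (edgeR log2 ratio 2.04, SE 0.298, adjusted p 1.62e-04). Mt2 had 134 and 64.6 CPM in Lats CKO and 30.5 and 5.77 CPM in control (2.64, SE 0.514, adjusted p 0.00901). Both Lats CKO libraries were above both controls for either gene. Mt1 and Mt2 also had counting intervals above 0 at both stages in cardiomyocyte-like and haemoglobin-rich cells, and Mt1 in endocardial-like cells. Of the early response genes, Fos fell (edgeR log2 ratio -0.99, SE 0.215, adjusted p 0.0243), and it was the 1 of 14 tested that passed. In the same edgeR test 8 of the 14 had an unadjusted p under 0.05, against 642 of all 7509 genes. The other early response genes with intervals below 0 at both stages were Jund (log2 ratios -0.67 at E14.5 and -0.74 at E13.5), Egr1 (-0.59 and -0.76), Ier2 (-0.79 and -0.80) and Zfp36 (-1.44 and -1.27). Of 6 genes of the Bcl2 family, to which Bax belongs, 0 had counting intervals on the same side of 0 at both stages, and edgeR called 0 of 4, with 0 at an unadjusted p under 0.05.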
